A study of Drosophila melanogaster with 2 samples.

Results

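Binding of mod(mdg4) inside introns was described from 1500 peaks whose summits lie in introns of protein-coding genes shorter than 50 kb. The peaks were taken from the authors' thresholded list of 6294 peaks on the dm6 build, of which 6273 lie on the arms of chromosomes 2, 3, 4 and X. A peak was kept when its summit lay more than 500 bp from every start site of a protein-coding gene, in no annotated exon, and within at least 1 protein-coding gene, with every gene that spans it shorter than 50 kb. These 1500 peaks make up 23.9% of the 6273 arm peaks. Values of the signal played no part in the choice.

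The data come from chromatin immunoprecipitation with an anti-GFP antibody, followed by sequencing, of whole wandering third-instar larvae of Drosophila melanogaster. The larvae belong to 1 transgenic line, labelled mod(mdg4)-GFP, that stably carries mod(mdg4) with GFP fused to its C-terminal end, and both sexes were pooled. Their exact age is given as unknown. The 2 biological replicates, numbered 3 and 4, form the only group, so no treatment or genotype was compared. Untagged forms of mod(mdg4) were not measured, and the mod(mdg4) gene makes many protein forms that differ at their C-terminal end. A whole larva mixes many tissues, so binding in fewer cells and weaker binding per cell cannot be told apart. The files give no read counts, so depth is unknown, and the signal of a peak is the authors' own value from the pooled reads of both replicates, with no replicate error of its own. Signals from each replicate's own list are therefore set beside it.

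As background, mod(mdg4), "modifier of mdg4", is a BTB-domain chromatin protein of flies. One of its forms joins the zinc-finger protein su(Hw) and CP190 in the insulator complex first studied on the gypsy retrotransposon, and other forms act at other loci. Insulator proteins are known for separating enhancers from promoters and for loops between distant sites. Introns of fly genes hold many enhancers, often close to the start of the gene, and also nested genes and alternative start sites.

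The strongest intronic peaks on arms 2L, 3L, 3R and X with the su(Hw) site or the CTCF core are shown by their sequences because both motifs belong to well-known insulator proteins. Each window is 201 bases centred on a summit and was read from the dm6 genome in RefSeq. For the first 3 the capitals mark a match to the su(Hw) site, the long motif bound by su(Hw). They lie in introns of Fhos, which encodes a formin that assembles actin (chr3L:8787331-8787531, plus strand), of CCKLR-17D3, which encodes a receptor for cholecystokinin-like peptides (chrX:18772109-18772309, minus strand), and of Zasp66, which encodes a protein of the muscle Z disc (chr3L:8628002-8628202, plus strand). The window in Fhos holds 2 such matches.
Fhos: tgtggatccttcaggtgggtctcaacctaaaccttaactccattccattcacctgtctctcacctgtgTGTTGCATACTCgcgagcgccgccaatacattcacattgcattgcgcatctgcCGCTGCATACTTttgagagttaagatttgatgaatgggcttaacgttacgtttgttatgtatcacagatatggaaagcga
CCKLR-17D3: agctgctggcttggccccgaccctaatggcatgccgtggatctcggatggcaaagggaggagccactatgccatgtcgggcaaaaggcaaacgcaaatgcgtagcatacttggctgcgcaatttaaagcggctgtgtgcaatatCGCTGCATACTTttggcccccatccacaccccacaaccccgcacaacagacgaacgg
Zasp66: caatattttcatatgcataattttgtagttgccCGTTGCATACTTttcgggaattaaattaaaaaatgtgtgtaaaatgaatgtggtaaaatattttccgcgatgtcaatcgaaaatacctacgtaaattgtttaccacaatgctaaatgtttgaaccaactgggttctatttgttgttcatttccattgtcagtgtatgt
For the next 3 the capitals mark the CTCF core, which is AGGTGGCGC, AGGGGGCGC or AGATGGCGC on either strand. They lie in introns of siz, which encodes an exchange factor for Arf GTPases used in myoblast fusion (chr3L:21049706-21049906, plus strand), of CG43693 (chr3L:11047980-11048180, plus strand), and of eIF5B, which encodes a translation initiation factor (chr3L:3457001-3457201, minus strand). The window in CG43693 holds 2 matches.
siz: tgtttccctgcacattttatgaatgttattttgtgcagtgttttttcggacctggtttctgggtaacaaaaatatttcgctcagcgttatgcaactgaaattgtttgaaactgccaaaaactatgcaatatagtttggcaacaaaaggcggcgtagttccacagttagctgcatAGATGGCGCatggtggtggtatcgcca
CG43693: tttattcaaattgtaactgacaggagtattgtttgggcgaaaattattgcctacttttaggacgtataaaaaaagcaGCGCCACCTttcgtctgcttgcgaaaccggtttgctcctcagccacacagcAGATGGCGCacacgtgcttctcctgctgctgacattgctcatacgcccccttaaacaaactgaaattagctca
eIF5B: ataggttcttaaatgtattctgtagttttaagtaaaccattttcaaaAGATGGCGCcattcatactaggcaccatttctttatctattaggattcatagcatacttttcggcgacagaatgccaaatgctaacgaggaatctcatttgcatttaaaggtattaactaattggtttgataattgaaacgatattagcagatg
The last 3 show strong peaks without a su(Hw) site or CTCF core. CG11050 hosts the strongest of all 1500 peaks and has in capitals the short su(Hw) core, TGCATA, 4.5 bp from the summit (chr2L:6612581-6612781, plus strand). CG32772 (chrX:4910302-4910502, plus strand) has none of the 22 motifs searched in this window. The peak in sea, which encodes a mitochondrial citrate carrier, is the strongest on those arms with a GATA site, AGATAAG in capitals (chr3R:11565053-11565253, plus strand), and was chosen after its value was seen. For all 9 windows, sequences on the minus strand are given as that strand reads.
CG11050: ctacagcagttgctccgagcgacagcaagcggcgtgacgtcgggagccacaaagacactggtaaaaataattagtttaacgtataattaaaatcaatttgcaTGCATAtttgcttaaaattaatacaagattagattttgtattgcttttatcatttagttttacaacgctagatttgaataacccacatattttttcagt
CG32772: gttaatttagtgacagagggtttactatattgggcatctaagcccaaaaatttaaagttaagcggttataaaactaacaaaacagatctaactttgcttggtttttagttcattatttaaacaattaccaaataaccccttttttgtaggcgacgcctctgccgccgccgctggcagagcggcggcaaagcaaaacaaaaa
sea: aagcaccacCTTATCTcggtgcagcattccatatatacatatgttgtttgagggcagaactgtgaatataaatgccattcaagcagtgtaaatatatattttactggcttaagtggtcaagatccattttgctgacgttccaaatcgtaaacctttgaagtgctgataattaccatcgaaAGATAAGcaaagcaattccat

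Intronic sequence open to such peaks, outside exons and beyond 500 bp of any protein-coding start, added up to 25.5 Mb and held 58.8 peaks per Mb. Promoter sequence held 172.0 peaks per Mb, distal intergenic sequence 30.9, distal exonic sequence 10.8, and introns of genes of 50 kb or more 30.1. The density in introns of shorter genes was thus above that of each of the other distal classes and below that of promoters. In the strongest 6294 peaks of each replicate's own list, the same rule picked 1507 arm peaks (24.02%) in replicate 3 and 1420 (22.65%) in replicate 4, a mean of 23.3% ± 0.970 (SD, n = 2).

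Density fell with distance from the nearest start site. From 501 to 1000 bp there were 377 peaks, or 119.2 per Mb, and from there to 2000 bp there were 366, or 77.2 per Mb. From 2001 to 5000 bp the density was 51.5 per Mb (404 peaks), and beyond 5000 bp it was 36.2 per Mb (353 peaks). The same order was seen in each replicate's own list, where the nearest of these zones held 119.5 peaks per Mb in replicate 3 and 122.0 in replicate 4, and the farthest 35.2 and 30.9. The median distance to a start was 2053 bp and the largest was 29978 bp.

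Position within the gene went the same way. The first intron held 699 peaks, 46.6% of all (exact 95% binomial interval 44.1 to 49.2%), against 34.2% of the open sequence summed over genes. Its density was 77.0 per Mb. The second intron held 375 peaks at 58.3 per Mb, the third 184 at 51.1 per Mb, and the fourth and later introns 242 at 32.7 per Mb. First introns also lie closer to starts, so the zones were split. Between 501 and 1000 bp first introns held 136.9 peaks per Mb and later introns 89.8, and beyond 5000 bp first introns held 44.2 and later introns 32.1. First introns were denser in each of the 4 distance zones. These densities carry no test. Open sequence shared by overlapping genes was counted for each gene, but a peak only once, under the host whose start is nearest. For the 74 peaks with several hosts this choice can favour a first intron.

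**Figure D1:**
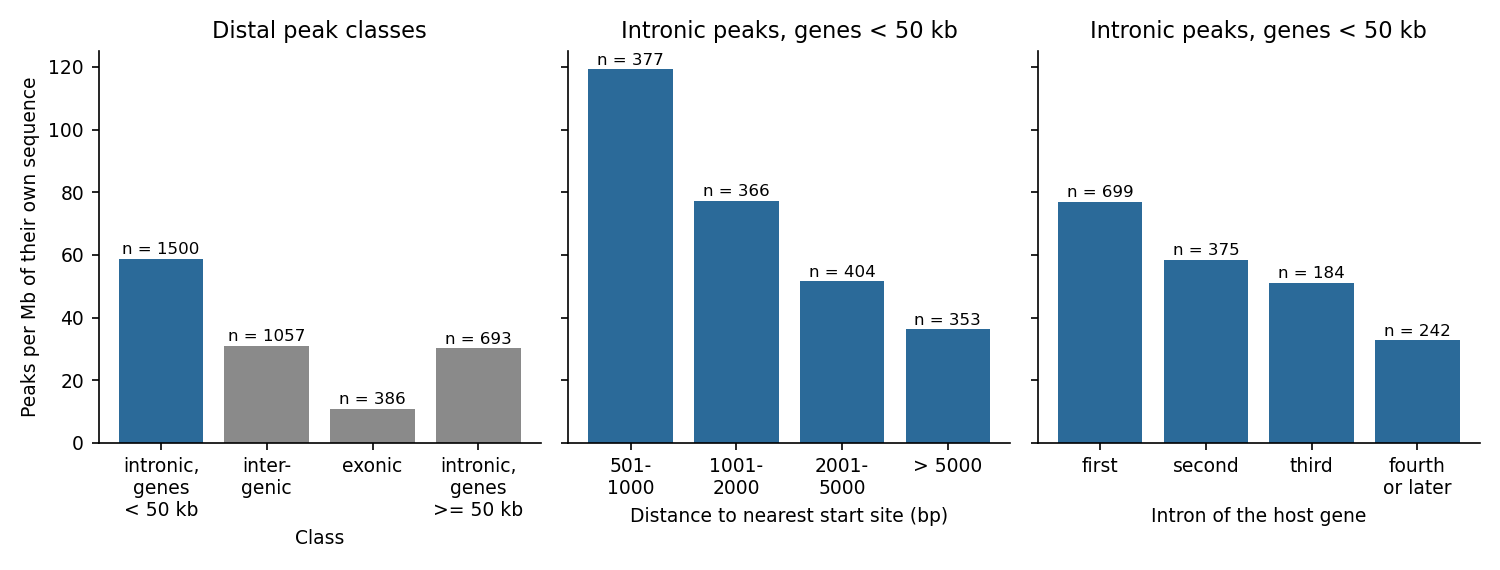
Peaks per Mb of the sequence each class could occupy, for the 4 distal classes (left), and for the intronic peaks in genes under 50 kb by distance to the nearest protein-coding start (middle) and by intron of the host gene (right). Bars start at 0 and n is the number of peaks. The intronic class stands at 58.8 per Mb, and its density falls from 119.2 to 36.2 with distance and from 77.0 to 32.7 from the first to the fourth and later introns.

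Most hosting introns were long, though longer introns also hold more open sequence and no background by intron length is given here. The median length of the intron around a summit was 5056 bp, with quartiles of 2205 and 10684 bp, and the median distance to the nearest exon of the host was 969.5 bp. Only 19 peaks lay in an intron of at most 300 bp, and the strongest peak of all was 1 of them. The arms 2L, 2R, 3L, 3R and X held between 55.04 and 63.33 peaks per Mb of open sequence. Chromosome 4, a small and largely heterochromatic chromosome, held 7 peaks, or 19.4 per Mb. At the edges of the rule, 94 peaks at 401 to 500 bp from a start had a median signal of 158.9 and 85 kept peaks at 501 to 600 bp had 173.7. Hosts of 45 to 50 kb held 88 kept peaks with a median of 179.6, and 59 peaks in hosts of 50 to 55 kb, outside the rule, had 162.7.

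The intronic peaks were weaker than promoter peaks. Their median signal was 173.6 (quartiles 136.1 and 250.0, range 113.2 to 2382), against 199.1 for promoter peaks, 190.9 for intergenic, 182.7 for exonic and 163.1 for intronic peaks of longer genes. The order of intronic below other arm peaks was the same in both replicates' own lists. In replicate 3 the medians were 106.3 and 117.5, and in replicate 4 they were 80.3 and 86.3. Within the intronic class, medians differed little between distance zones, from 164.7 beyond 5000 bp to 185.4 between 1000 and 2000 bp.

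Replicates shared fewer of these peaks than of the list as a whole. Of all arm peaks, 70.8% overlapped one of the strongest 6294 peaks of both replicates. Of the 1500 intronic peaks, 990 did, or 66.0% (exact 95% interval 63.5 to 68.4%), which is below that background, and 75.4% of promoter peaks did. Intronic peaks of genes of 50 kb or more were lower still, at 63.6% (59.9 to 67.2%). Another 295 were strong in replicate 3 alone, 172 in replicate 4 alone and 43 in neither, while 1485 had an overlapping peak in both full lists. After scaling to the median of each replicate, 88.7% of those 1485 pairs agreed within 2-fold, and the log2 ratio had an SD of 0.62. Spearman's rank correlation between replicate signals was 0.572 over these 1485 peaks and 0.671 over 4712 other arm peaks, as a description, since the points share 2 libraries and one list.

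**Figure D2:**
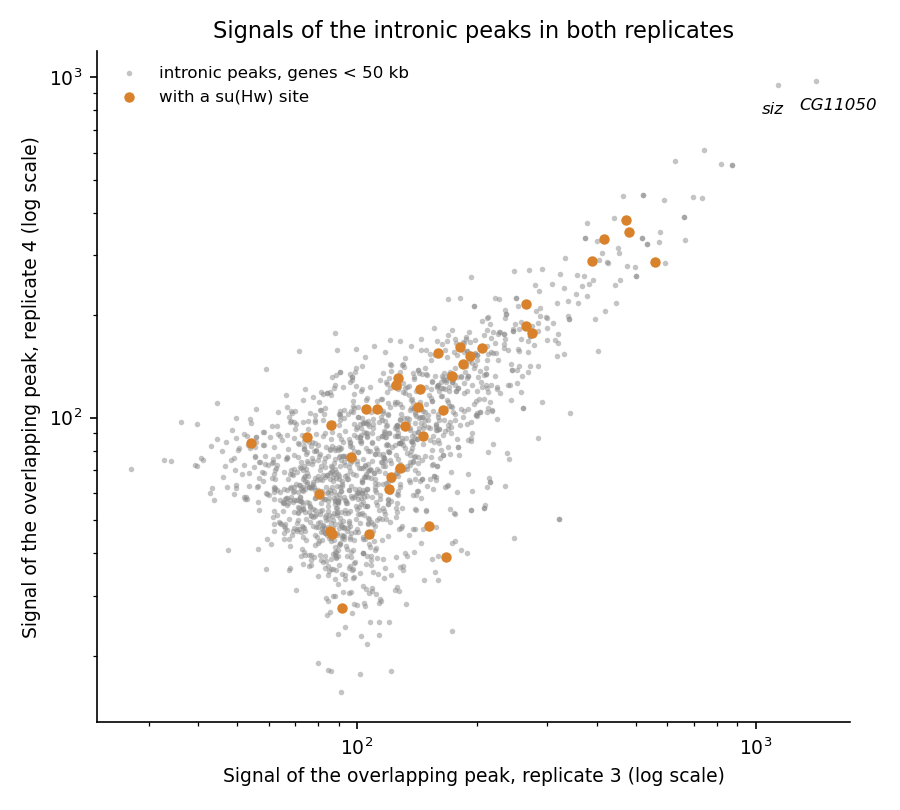
Signal of the peak that overlaps each of 1485 intronic peaks in replicate 3 (horizontal) and in replicate 4 (vertical), both on log scales. Each point is 1 peak, and orange points hold a su(Hw) site. The peaks in CG11050 and siz stand highest in both replicates, and the spread between replicates widens towards low signals.

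The strongest peaks were strong in both replicates. The peak in CG11050 had a signal of 2382 in the pooled list, 1416 in replicate 3 and 971.1 in replicate 4, which put it at place 20 and place 21 of the replicates' lists. Its summit lies in the fourth intron, which is 140 bp long, 994 bp from the nearest start. The peak in siz had 2070, with 1140 in replicate 3 and 946.9 in replicate 4, at places 23 and 22. Both rank far above the rest of the class, and the next had 1421 (CG32772), 1374 (CG43367) and 1346 (Treh). Treh encodes trehalase, which splits the main blood sugar of insects, and its peak had 740.3 and 610.2 in replicates 3 and 4.

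Several other hosts of the 20 strongest peaks encode metabolic enzymes, a kind of gene whose share among all hosts was not counted. GstS1 encodes a glutathione S-transferase and its peak had signals of 1189 pooled, 627.3 in replicate 3 and 567.7 in replicate 4. Zw encodes glucose-6-phosphate dehydrogenase, the entry enzyme of the pentose phosphate pathway, and had 1050, 660.5 and 387.1. Pepck2 encodes a phosphoenolpyruvate carboxykinase and had 902.9, 575.8 and 350.6. These 3 peaks and that of Treh were higher in replicate 3 than in replicate 4, as signals were in general, with medians over the class of 107.9 and 77.3.

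Among the other hosts of strong peaks, Lk6 encodes a kinase of the translation factor eIF4E and its peak had 1174 in the pooled list, 732.3 in replicate 3 and 441.2 in replicate 4. Daxx (1131), sky (1014, a summit shared with CG43739) and Evi5 (864.4) followed, and sky and Evi5 encode regulators of Rab GTPases. Trl, which encodes GAGA factor, a BTB protein like mod(mdg4), had 867.0 pooled, 591.5 in replicate 3 and 284.6 in replicate 4. The 3 peaks with a su(Hw) site printed above had pooled signals of 868.7 in Fhos, 843.1 in CCKLR-17D3 and 825.2 in Zasp66. CG32486 had 991.7, CG9663 had 969.9 and CG12769 had 914.5. Of the 20 strongest peaks, 11 lie in a first intron and 13 have a host with a promoter peak. None was placed lower than 176 in replicate 3 or 272 in replicate 4.

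Host genes were a minority of the genes that could hold such a peak. Of 8682 protein-coding genes with open intronic sequence, 889 hosted at least 1 peak, which is 10.2%. A single peak was found in 541 of the hosts, while 191 held 2, 74 held 3, 41 held 4 and 42 held 5 or more. Hosts had far more open sequence, with a median of 7409 bp against 341 bp in the other genes. The share that hosted a peak was 0.476% of genes with at most 500 bp of open sequence and 41.6% of those with more than 10000 bp. A summit lay inside 1 host for 1426 peaks and inside 2 or 3 overlapping genes for 74.

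Genes with an intronic peak often had a promoter peak too. Of the 889 hosts, 511 had a peak within 500 bp of a start, or 57.5% (exact 95% interval 54.2 to 60.8%), against 1456 of 7793 other genes, or 18.7% (17.8 to 19.6%). Host genes are longer, and the gap was present at each length. Among genes with more than 10000 bp of open sequence the shares were 59.4% and 21.2%, and among those with 501 to 2000 bp they were 54.8% and 21.7%. More start sites also give more chances of a promoter peak, and among genes whose starts all lie within 500 bp the shares were 48.3% (412 hosts) and 15.4% (6443 other genes). In the replicates' own lists, the shares were 54.1% and 20.2% in replicate 3 and 59.8% and 22.1% in replicate 4. The stronger peak of the pair was the intronic one in 236 of the 511 genes. All peaks of 1 gene share their larvae and the same pair of libraries, and these shares were not tested.

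**Figure D3:**
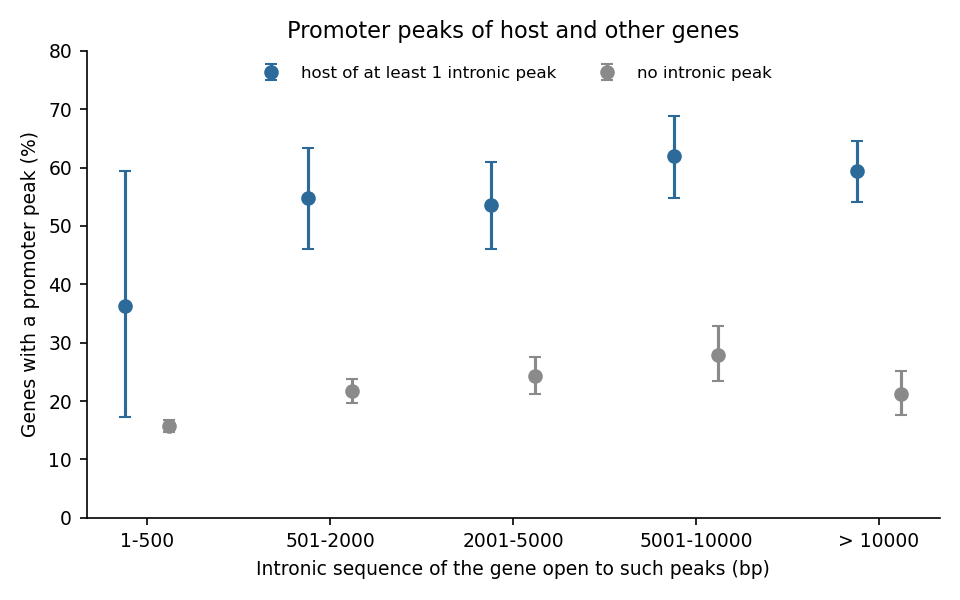
Share of protein-coding genes with a promoter peak (vertical, percent) by the amount of intronic sequence open to intronic peaks (horizontal), for genes that host at least 1 intronic peak and for genes that host none. Points are shares and bars are exact 95% binomial intervals. Hosts lie above other genes in each length class, by 59.4% against 21.2% in the longest, and the shortest class has a wide interval because it holds 22 hosts.

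Some genes carried rows of intronic peaks. The gene tara, whose product Taranis belongs to the trithorax group, held 13 peaks over its 34679 bp (3R:16225651-16260329), with signals from 114.2 to 390.5. Mnt, the partner of Max that opposes Myc, held 11 on the X chromosome, with signals of 116.3 to 267.2. Tis11, which encodes an RNA-binding protein of mRNA decay, held 10, all in its second intron, with signals of 119.1 to 371.4. Raf, the kinase downstream of the EGF receptor, held 9, also all in its second intron, at 121.9 to 598.5. In each of these 4 genes the weakest peak lay below the lower quartile of the class, 136.1, and the strongest above the upper quartile, 250.0. Each also held at least 1 peak outside the strongest 6294 of replicate 4. In Mnt such peaks stood at places 9691, 11908, 14600 and 25173 of that list.

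Another 5 genes held 8 peaks each, and all 9 genes also had a promoter peak. They are CG46385, Egfr, crp, nkd and simj. Egfr encodes the EGF receptor, and its strongest intronic peak holds a CTCF core and had 714.3 pooled, 412.4 in replicate 3 and 305.0 in replicate 4. The simj gene, which encodes a subunit of the NuRD chromatin complex, ranged from 169.5 to 542.2, and nkd, an inhibitor of Wnt signalling, from 134.8 to 266.5. In Mnt, 2 neighbouring summits overlapped the same replicate peaks, with 120.6 in replicate 3 and 90.1 in replicate 4 for both, so the counts of peaks in such rows depend on how the pooled list splits them. Across the class, 803 of 1500 summits (53.5%) had another arm peak within 2000 bp, and the median distance to the nearest one was 1809 bp.

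Gene lists were compared with all 8682 genes that could hold a peak, of which 10.2% were hosts at 59.5 peaks per Mb of open sequence. Signalling genes ranked highest by hosts. Of 16 genes of Notch and EGFR signalling with open sequence, 11 were hosts in the thresholded list and 10 in each replicate's list, with 38 peaks at 158.8 per Mb. Besides Egfr (714.3) and Raf (598.5), sty, the inhibitor Sprouty, had a strongest peak of 533.6, with 280.3 in replicate 3 and 245.0 in replicate 4. The repressor gene aop (Yan) had 408.6, with 219.5 and 178.7. These genes have long introns, with a median of 17027.5 bp of open sequence, so their share is not set against 10.2% without the density.

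Growth and cell survival genes also lay above the 59.5 peaks per Mb of all genes. So did every list but those of neuron, imaginal disc patterning and cuticle genes, so this does not set them apart. Examples are glycolysis and sugar genes at 120.5 per Mb and immunity genes at 115.1. Ribosomal protein genes, with 1 peak, were at 154.8 per Mb. Of 25 genes of insulin, TOR and growth, 7 were hosts with 24 peaks at 144.5 per Mb, and the counts were 7 in each replicate. Mnt, named above, is in this list and held 11 of the 24 peaks, so the density rests largely on 1 gene. Akt, the kinase of the insulin pathway, had 450.8 pooled, 236.6 in replicate 3 and 201.6 in replicate 4, in only 866 bp of open sequence. The insulin receptor gene InR held 5 peaks, up to 266.9, and foxo had 1 peak at 270.9, with 87.9 in replicate 3 and 177.1 in replicate 4, where the medians of the class are 107.9 and 77.3. Of 19 apoptosis genes, 4 were hosts with 15 peaks at 214.5 per Mb. Diap1, the inhibitor of caspases, had 5 peaks, the strongest at 800.4 pooled, 440.4 in replicate 3 and 386.2 in replicate 4. Xrp1 (441.5), the JNK phosphatase gene puc (394.6) and the caspase gene Dronc (115.8) were the other 3. Of 17 Hippo and Fat genes, 6 were hosts at 155.3 per Mb, led by the polarity gene crb at 757.6, with Tgi (342.2), dco (329.4) and ex (308.4) after it.

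Chromatin genes, hormone genes and clock genes had hosts as well. Polycomb and trithorax genes had 6 hosts of 26 and 18 peaks at 241.2 per Mb. The strongest were in trx, which encodes a histone H3 lysine methyltransferase (616.2 pooled, 418.3 in replicate 3 and 205.1 in replicate 4), and Kdm2 (601.6). The Polycomb group genes ph-p (374.3) and Psc (365.5) followed. Ecdysone and moulting genes had 8 hosts of 18 at 104.3 per Mb, with the nuclear receptor genes Eip78C at 717.0 and Hr39 at 417.0, the zinc-finger gene crol at 400.7 and the transporter gene E23 at 276.6. Clock genes had 5 hosts of 12, and vri, a repressor of the clock, alone held 7 peaks up to 746.6, with 452.8 and 304.9 in the replicates. Next were norpA, the phospholipase C of the eye, at 725.9 and the kinase gene sgg at 576.2, with dco again at 329.4. Both juvenile hormone hosts encode transcription factors of that pathway, the receptor gene gce (409.8) and its target Kr-h1 (230.0, 4 peaks), of 8 genes in all.

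Neuronal and patterning genes had few peaks for their length. Neuron genes held 3 peaks in 23 genes, or 9.98 per Mb, at elav (249.8), Shal (217.6) and dsx (124.2). Imaginal disc patterning genes held 12 peaks in 10 of 40 genes, or 22.7 per Mb, and the hosts fell to 7 in replicate 3 and 5 in replicate 4. The strongest there was knrl at 252.0, followed by ptc (186.5), Abd-B (180.8) and dpp (175.6). Both densities lie below the 59.5 per Mb of all genes, though 10 of 34 neuron genes and 6 of 47 patterning genes are of 50 kb or more and so outside the rule.

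The remaining lists are given by their hosts and strongest peaks. Muscle genes had 8 hosts of 28 at 69.6 per Mb, with Zasp66 (825.2), the RNA-binding protein gene how (357.3), the transcription factor gene Mef2 (326.9) and mbc (291.2). Fat body and lipid genes had 7 hosts of 21, with Lpin (315.5), foxo, the perilipin gene Lsd-2 (259.8) and the lipase gene bmm (241.6). Glycolysis and sugar genes had 4 of 18, where Treh at 1346 stood far above Tret1-1 (166.0), PyK (131.5) and UGP (130.7), and the hosts were 4 in replicate 3 and 2 in replicate 4. BTB-domain genes had 4 of 11, namely Trl, CG3726 (707.8), ttk (217.7) and lute (132.1), and insulator and architectural protein genes had 2 of 21, Trl and jigr1 (324.6), with 5 hosts in the list of replicate 3 and 2 in that of replicate 4. Cell cycle genes had 5 of 25, including Cdk4 (427.0), trbl (307.1), CycE (288.1) and the Cdc25 phosphatase gene stg (286.6). Immunity genes had 3 of 19, Stat92E (265.6), Dif (244.1) and Socs36E (227.6), with 4 peaks each, but 5 hosts in each replicate's own list. Gut digestion genes had 3 of 16 (GATAd at 275.1, Vha55 and nub), cuticle genes 2 of 11 (Cpr49Ae at 327.7 and grh at 268.4), and ribosomal protein genes 1 of 23 (RpS27 at 120.8), which was 1 in replicate 3 and 0 in replicate 4.

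**Figure D4:**
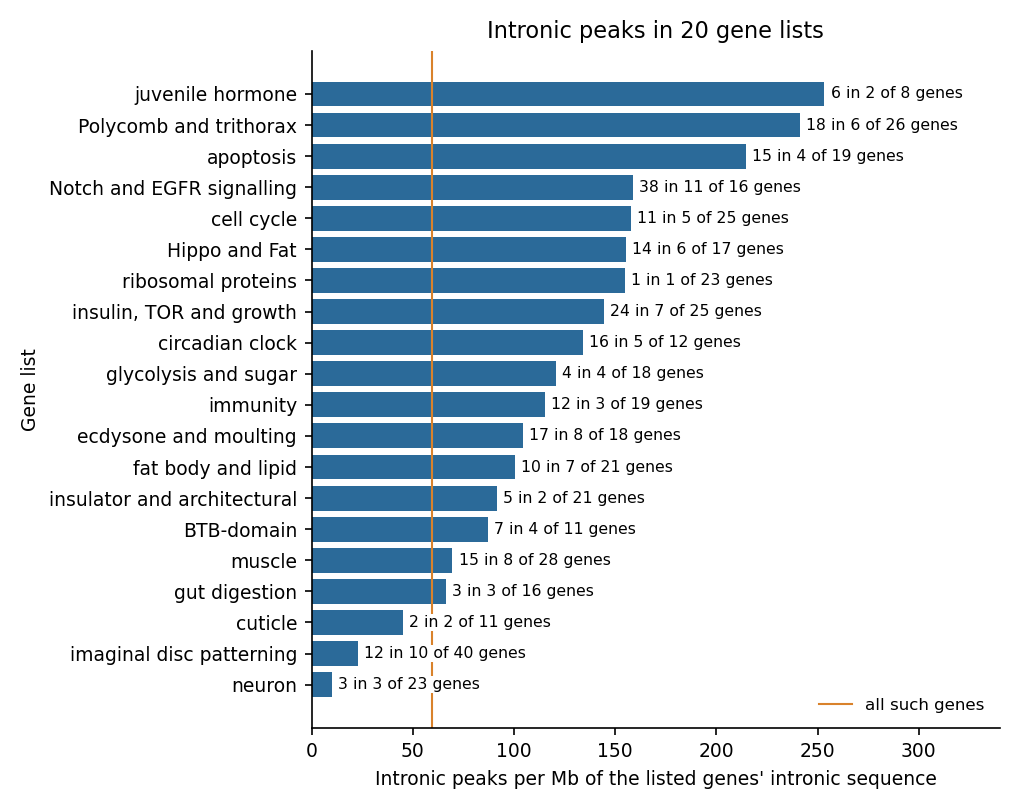
Intronic peaks per Mb of open intronic sequence (horizontal, from 0) for 20 gene lists (vertical), with the number of peaks, of host genes and of genes with open sequence beside each bar. The line marks all 8682 genes at 59.5 per Mb. The lists range from 253.4 for juvenile hormone genes, which rest on 2 hosts, to 9.98 for neuron genes.

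Motifs were compared between the 201 bp window at each summit and 1 paired window of the same length at a distance of 1000 bp, whose side was random. In a two-sided exact McNemar test per motif, adjusted after Benjamini and Hochberg over all 22, 9 motifs (40.9%) passed, 7 of them higher at summits and 2 lower. With the window on the opposite side, 7 of the 9 passed again and 3 others did. The tests count peaks, not animals. Another 25511 windows of 201 bp, spaced evenly along the open intronic sequence and called tiles here, give the level of each motif without regard to peaks. Summit windows had 37.5% GC and flanking windows 41.0%. Of the flanking windows, 66.2% were centred in open intronic sequence and 22.4% in an exon. The rest were centred near starts, between genes or in longer genes, and were not counted apart. Both composition and the kind of sequence thus moved with this comparison, and their part in it was not tested.

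The su(Hw) site had the highest ratio of summit to flanking windows. It was found in 38 summit windows (2.53%, exact 95% interval 1.80 to 3.46%) and in 3 flanking windows (0.200%), with an adjusted p of 6.25e-08 in the exact McNemar test. The ratio of 12.7 rests on those 3 windows, and the CTCF core had the higher ratio with flanks on the opposite side (6.67 against 6.33) and also with windows of 50 bp to each side. Over flanks on both sides, 9 of 3000 windows held the site (0.300%), a ratio of 8.44. With each replicate's own list it was 4.11 for replicate 3 and 5.33 for replicate 4, with shares at summits of 2.46% and 2.25%, and 0.455% of tiles held the site. The same motif read backwards was in 0.200% of summit windows. The short su(Hw) core TGCATA, which lies within the longer site, was in 17.5% of summit windows, 13.9% of flanks (exact McNemar, adjusted p = 0.0251) and 15.01% of tiles. Its call was lost in 3 of 10 other settings, one of which left out flanks centred in exons. Read backwards, the core was in 7.8% of summit windows and 5.4% of flanks, in proportion a wider gap than for the core itself. Whether the call of the core is specific to su(Hw) was not tested.

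Peaks with a su(Hw) site were stronger, and most sites lay near the summit. Their median signal was 243.1 against 172.4 for the other intronic peaks, with 143.2 against 106.9 in replicate 3 and 106.1 against 77.0 in replicate 4. In 30 of 38 the site lay within 50 bp of the summit, at a median distance of 15.5 bp, and 78.9% were strong in both replicates against 65.7% of the rest. Only 26.3% lay in a first intron, against 46.6% of the class. These are descriptions of 38 peaks, with no test.

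The CTCF core was rarer and missed the threshold. It was in 20 summit windows (1.33%), 8 flanking windows (0.533%) and 0.325% of tiles, with an adjusted p of 0.0785 in the exact McNemar test. It was called in 7 of 10 other settings, among them the list of replicate 4 alone. The 20 peaks had a median signal of 263.3 against 173.0 for the rest. The motifs of the promoter-bound insulator proteins were not higher at summits than in flanks. The DRE, TATCGATA, which contains the BEAF-32 element CGATA, was in 0.333% of summit and 0.800% of flanking windows, and CGATA was in 23.7% of both (tiles 0.372% and 20.6%). Motif 1, GGTCACAC, was in 0.467% and 0.800% (tiles 0.274%). Against tiles, CGATA and Motif 1 were higher at summits and the DRE was lower, without a test. Flanks include sequence outside the open introns, so the 2 backgrounds differ.

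Motifs of other DNA-binding proteins were called with smaller ratios. GAGA, spelled GAGAGAG and bound by the product of Trl, was in 7.47% of summit and 4.93% of flanking windows (exact McNemar, adjusted p = 0.0217) and in 2.76% of tiles. The GATA site AGATAAG was in 5.07% and 3.07% (adjusted p = 0.0251 in the exact McNemar test) and in 2.62% of tiles, and its call was lost in 4 of 10 other settings. The Forkhead site TGTTTAC was in 6.93% and 4.67% (adjusted p = 0.0251 in the exact McNemar test) and in 4.89% of tiles. The Mef2 site was in 9.53% and 6.67% (adjusted p = 0.0220 in the exact McNemar test), but read backwards it was in 10.7% and 6.20%. Runs of 8 A, which read the same backwards, were in 19.3% and 12.9% (adjusted p = 2.54e-05 in the exact McNemar test). All 5 calls were lost in the 3147 strongest peaks alone, which leave 665 intronic peaks. The Mef2 call was lost in 4 of 10 other settings, which included the list of replicate 4 alone, flanks on the opposite side and pairs without exonic flanks, and the GAGA call in 3 of 10 other settings in all.

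The motifs lower at summits were those of Pho, a Polycomb recruiter, and of Scalloped, the Hippo pathway's DNA-binding protein. The Pho core GCCAT was in 27.0% of summit and 31.3% of flanking windows (exact McNemar, adjusted p = 0.0255) and in 35.8% of tiles. The Scalloped site GGAATG was in 6.87% and 10.3% (exact McNemar, adjusted p = 0.00601) and in 9.93% of tiles. The latter was not called in the list of replicate 4 alone or with flanks on the opposite side, and the former was not called in 3 of 10 other settings. The other motifs searched, namely Motif 6, the Zelda site CAGGTAG, the E-boxes CACGTG and CAGCTG, the AP-1 site TGANTCA, the nuclear receptor site AGGTCA, the Grainyhead site AACNGGTT, the homeodomain core TAATTA and the CA repeat CACACACA, were not called. In other settings the CA repeat was called higher at summits in 6 of 10, among them each replicate's own list, the Grainyhead site in 5 of 10 and the homeodomain core in 2 of 10.

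**Figure D5:**
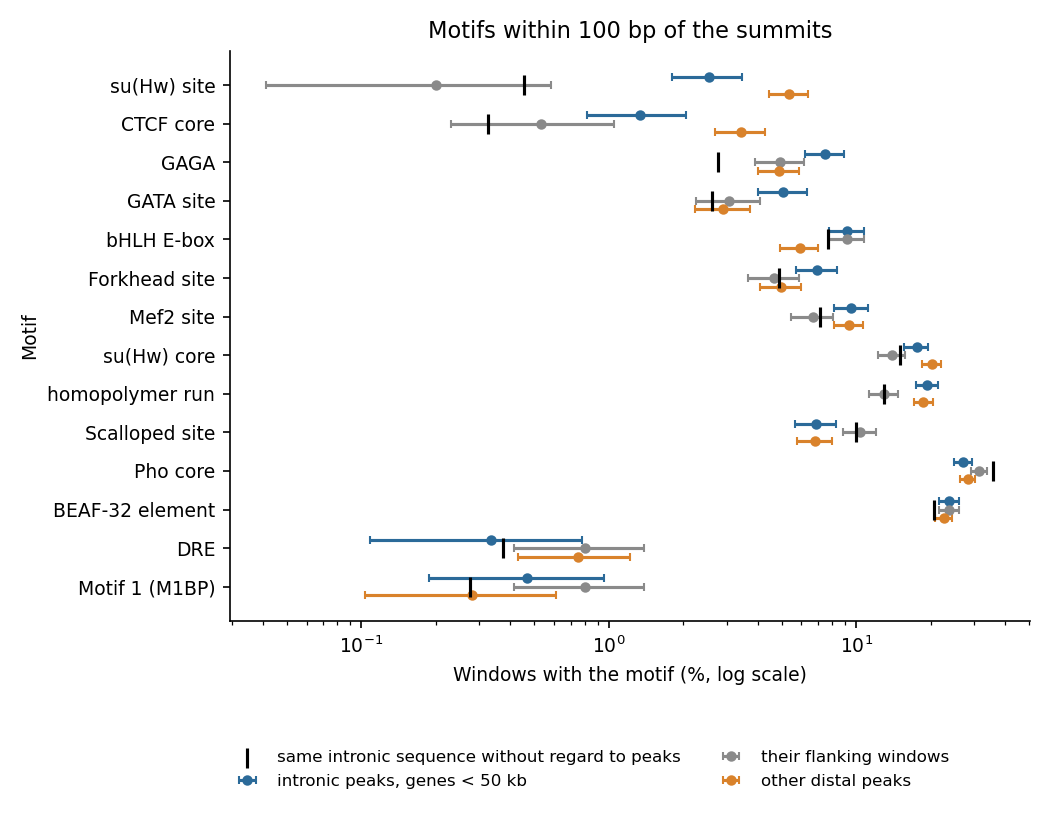
Share of windows with each of 14 of the 22 motifs (horizontal, percent on a log scale) for the 1500 intronic peaks, their flanking windows and the 2136 other distal peaks, with exact 95% binomial intervals. Black ticks mark the share in tiles of the same intronic sequence without regard to peaks. The su(Hw) site stands at 2.53% at summits, 0.200% in flanks and 5.34% in the other distal peaks.

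Against the group of 2136 other distal peaks, the su(Hw) site and the CTCF core were rarer in the intronic peaks. A two-sided Fisher exact test per motif, adjusted in the same way over 22 motifs, called 5 of them (22.7%). The su(Hw) site was in 2.53% of intronic and 5.34% of other distal windows (Fisher exact, adjusted p = 0.000499). The CTCF core was in 1.33% and 3.42% (Fisher exact, adjusted p = 0.000713). Both differences were called in all 7 other settings. Not called were the su(Hw) core (17.5% and 20.2%; Fisher exact, adjusted p = 0.136), the BEAF-32 element (23.7% and 22.6%) and Motif 1 (0.467% and 0.281%). By class the su(Hw) site was in 6.91% of intergenic, 4.04% of long-gene intronic, 3.37% of exonic and 1.52% of promoter windows, so the intronic class lay between promoters and the other distal classes. The CTCF core was in 4.54%, 2.45%, 2.07% and 1.82% of these windows, all above the 1.33% of the intronic class. For both motifs the exact 95% interval of the intronic class overlapped those of the long-gene intronic and exonic classes. Among the distal classes it lay apart only from that of intergenic peaks. The distal classes were not tested separately.

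Another 3 motifs were more frequent in the intronic peaks than in other distal peaks. GAGA was in 7.47% and 4.87% (Fisher exact, adjusted p = 0.00575), and the GATA site was in 5.07% and 2.90% (Fisher exact, adjusted p = 0.00573). The E-box CAGCTG was in 9.20% and 5.90% (Fisher exact, adjusted p = 0.00151). It was as frequent in the flanks, at 9.20%, and was in 7.66% of tiles, and its call was lost in the list of replicate 3 alone. By distal class, GAGA was in 7.51% of exonic, 6.06% of long-gene intronic and 3.12% of intergenic windows. It was thus as frequent in exonic peaks as in the intronic class. The GATA site was in 4.40%, 2.89% and 2.37% of these windows, and the E-box in 6.74%, 6.49% and 5.20%. The E-box and GAGA were also frequent in promoter windows, at 12.8% and 9.37%, while the GATA site was in 3.19% of those. GC content was 37.5% in intronic and 37.0% in other distal windows. Calls for these 3 motifs were lost in the 3147 strongest peaks alone, and that of GAGA also with windows of 50 bp to each side.

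All 8-letter words were then counted on both strands, as a description without a test. By difference in number of windows, words rich in A and T led, with AAAATAAA in 238 summit windows and 137 flanks. AAAGTATG had the largest such difference among 30 words listed for their high ratio of summit to flanking windows. It was in 93 summit windows (6.20%) and 18 flanks. On the other strand it reads CATACTTT, which continues the su(Hw) core to one side, and it was in 1.34% of tiles. Of the 93 peaks, 51 also hold TGCATA and 27 the full su(Hw) site, so more windows hold this word than the site as searched. The word was in 5.91% of windows in replicate 3's list and 5.99% in replicate 4's, and in 9.41% of the other distal peaks. Peaks with it had a median signal of 245.6 against 170.5, the word lay a median of 16.5 bp from the summit, and 25 of the strongest 150 peaks held it, those in CG43367, sky, Fhos, CCKLR-17D3, Zasp66 and Diap1 being the strongest. It occurs in the printed windows of Fhos, CCKLR-17D3, Zasp66 and eIF5B.

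Next by that difference among words that share no 6 letters with it was CACTGAGA. It was in 43 summit windows (2.87%), 9 flanks (0.600%) and 0.710% of tiles, and in 2.20% of other distal and 1.06% of promoter windows. In the replicates' lists it was in 2.39% and 2.18%. It lay farther from the summits, at a median of 54.5 bp, and its peaks had a median signal of 200.5 against 173.5. No name is given to this word here.

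Nested noncoding genes accounted for few of the intronic peaks. The rule excluded starts of protein-coding genes only, and 49 peaks lay within 500 bp of the start of another annotated gene. Of these, 28 were near noncoding RNA genes, at 127.5 peaks per Mb of the open sequence so placed, and 19 were near tRNA genes. Open sequence near tRNA starts amounts to only 0.0443 Mb, so its density was 429.3 per Mb, against 58.8 for the class. The 19 peaks lie in 15 host genes and had signals of up to 281.5, with a median of 146.9 that lies below the 173.6 of the class. The strongest were in hts, near a valine tRNA gene, with 281.5 pooled, 190.1 in replicate 3 and 106.0 in replicate 4, and in mrj, near a glutamate tRNA gene, with 241.4, 136.8 and 112.3. The strongest near any such start was in Atg18b, 96 bp from a U4 snRNA gene, at 745.4 pooled, 377.9 in replicate 3 and 372.6 in replicate 4. These densities are descriptions and were not tested.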

How the data were processed

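Per the labels, sonicated larval chromatin with fragment sizes between 200 and 800 bp was precipitated with an anti-GFP antibody. The authors deposited peak lists on dm6 for each replicate, for the pooled reads and for the peaks that passed their threshold. Not given in the sources used here are the caller, the threshold and how repeated reads were handled. The signal column is the authors' enrichment value per peak as deposited. Lists differ in scale, so replicate signals are given side by side, and ratios between replicates were scaled to each replicate's median. No list gives counts, so depth is unknown.

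Summits were placed from the deposited offsets, counted from 1. Genes, exons and starts came from Ensembl release 115, and sequence from the RefSeq genome of the same assembly. Introns are the gaps between the merged exons of all transcripts of a gene, numbered along its strand. Annotated transposable elements counted as exons, which left out 12 summits within genes. A replicate signal is that of its strongest peak overlapping by at least 1 bp. Motifs were searched on both strands within 100 bp of a summit. Paired windows were compared by exact McNemar tests, and the intronic with all other distal peaks by Fisher exact tests, each adjusted over 22 motifs with a threshold of 0.05. Intervals are exact 95% binomial intervals (Clopper-Pearson) and reflect how many peaks or genes were counted, not animals. The labels number the replicates as biological, and no test rests on their spread. The motif tests were tested on simulated windows with planted motifs. Of 584 gene-list symbols 20 had no match and were left out.

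The peaks, gene lists and motifs were chosen with earlier results of these data known. Some items are not reported here. Apart from those, named genes are hosts of the 20 strongest peaks, the hosts with most peaks, up to 4 genes per list with the strongest peak, and hosts of the printed sequences. Hosts named for the words of 8 letters and for noncoding genes were chosen after their values were seen. Alternatives were each replicate's list alone, the 3147 strongest peaks, other distance and length limits, other windows, and, added after seeing the data, pairs without exonic flanks, flanks on the opposite side and 1 peak per group of overlapping windows. Python 3.11.15, NumPy 2.4.6, pandas 2.3.3, SciPy 1.17.1 and matplotlib 3.10.9 were used.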

Additional observations from a re-analysis of the deposited data

How the results depend on the processing

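The class held between 1420 and 1507 peaks in the lists of single replicates, and its share of arm peaks ranged from 22.65 to 24.02%. The ratio of its median signal to that of other arm peaks was 0.912, and 0.905 and 0.931 by replicate. In the 3147 strongest peaks there were 665 intronic peaks (21.3% of arm peaks), with su(Hw) sites in 3.91% and CTCF cores in 2.11%. In that setting 3 motifs were called against flanks and 2 against other distal peaks. Promoter peaks were found in 38.8% of hosts, and hosts among 5.70% of genes. The share of other genes with a promoter peak is not given for that setting, so the gap to hosts cannot be read from it. Beyond 1000 bp the share was 17.9%, with 43.2% in first introns and CTCF cores in 1.25%. In genes under 30 kb the share was 18.0%, with 1.07% CTCF cores and hosts among 8.95% of genes. Leaving out starts of all genes gave 1.38% CTCF cores. Windows of 50 bp to each side gave 1.93% su(Hw) sites and 0.667% CTCF cores. One peak per group of overlapping windows, added after seeing the data, gave 1.35% CTCF cores. An overlap of 50% of the shorter peak left 63.0% strong in both replicates.

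Single replicate lists gave 2.25 to 2.46% su(Hw) sites, 1.194 to 1.197% CTCF cores, 10 motifs called against flanks in each, 5 to 9 called against other distal peaks, 45.8 to 48.4% in first introns, promoter peaks in 54.1 to 59.8% of hosts, and hosts among 9.94 to 10.4% of genes. In both comparisons the su(Hw) site was called in all alternatives run, with ratios of 4.11 to 26.0 to flanks and 0.426 to 0.495 to other distal peaks. Other counts called against flanks ran from 6, with windows of 50 bp or without exonic flanks, to 13 with flanks 2000 bp away. Calls lost in the list of replicate 4 alone were those of the Mef2 and Scalloped sites. The causes of these shifts were not tested. The class had a lower median signal than other arm peaks, and fewer of its peaks were strong in both replicates (66.0% against 72.3%). A link between these was not tested, and the lists give no depth. No paired analysis was possible because there is 1 group.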
